A study of Mus musculus with 9 samples.

Results

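The comparison described here sets leukocytes from sarcomas treated with doxorubicin plus ADU-S100 (the combination) against leukocytes from vehicle-treated tumors (control), over all genes in the table and with weight on genes outside the interferon-stimulated and Ly6 families and on genes that were lower. Its members are 6 RNA-seq libraries of the 9 in the series, 3 of each group, chosen by their treatment labels. The tumors were grafts of WEHI-164, a single mouse fibrosarcoma line, placed under the skin near the thigh of BALB/c mice. Doxorubicin, a DNA-damaging anthracycline, was injected into the tumor weekly at 5 mg/kg, and ADU-S100, a man-made cyclic dinucleotide agonist of STING, was given by the same route at 25 µg, 2 times a week. Tumors were dissociated 7 days after treatment and CD45+ cells were enriched with magnetic beads, with no further separation by cell type. Libraries from doxorubicin alone are given beside the results where they help, and no library received ADU-S100 alone, so the effect of ADU-S100 and that of the pair of drugs cannot be told apart in this comparison. The study calls the libraries of a group biological replicates, and how mice were assigned to libraries is not given in the sources used here.

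STING is a receptor of the endoplasmic reticulum that binds cyclic dinucleotides and signals through TBK1, IRF3 and NF-kappaB. In myeloid cells this pathway switches on type I interferon genes and inflammatory cytokines together with their feedback inhibitors. Tumor leukocytes include macrophages of long residence, many of which sit beside vessels and carry scavenger receptors, and monocytes that have entered recently. Signals that raise cyclic AMP, such as adenosine and prostaglandin E2, act on the same cells through CREB-family factors and induce NR4A nuclear receptors, CREM and phosphatases that damp MAP kinases.

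The 6 libraries held between 52909751 and 69456603 counts. All carried leukocyte and macrophage transcripts: Ptprc, which encodes CD45, lay at 551, 303 and 376 CPM (counts relative to the TMM-adjusted library total) in control replicates 1, 2 and 3 and at 361, 627 and 189 CPM in combination replicates 1, 2 and 3, and the macrophage marker Csf1r ranged from 638 to 1498 CPM. Fibroblast and sarcoma cell genes were also present, with a mean log2 CPM over 26 genes of 2.41, 5.39 and 2.93 in control and 2.31, 2.78 and 5.92 in the combination. Control replicate 2 and combination replicate 3 therefore stood apart from the other 4 libraries in stromal transcripts, one in each group. Mitochondrially encoded genes took 2.27, 7.59 and 4.35% of the counts in control and 13.1, 3.48 and 1.96% in the combination. The results below are given with all 6 libraries and with each left out.

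No gene passed an adjusted p of 0.05 in edgeR's quasi-likelihood test (0 of 16373 genes tested, 0%; smallest adjusted p 0.790), 727 genes had an unadjusted p under 0.05 (4.44%), and limma-voom also called 0. DESeq2 called 20 genes higher (0.114%) and 7 lower (0.0398%) of the 17608 genes it adjusted, of which 25 were among those edgeR tested, including Irf1, Bst2 and 3 Ly6 genes. At the thresholds used by the study, a fold change over 2 and an unadjusted p under 0.05, 239 genes were higher (1.46% of those tested) and 116 were lower (0.708%). These nominal calls are descriptive, and "higher" or "lower" at the nominal thresholds is used for them throughout. In what follows library values are in the order of replicates 1, 2 and 3, a value in parentheses beside an SE is the edgeR log2 fold change of the combination over control, and a gene is called lost when it missed the nominal thresholds with the named library left out, with its log2 fold change in that fit in parentheses. All 3 combination libraries lay above all 3 control libraries for 718 genes (4.39%) and below them for 646 (3.95%). The median log2 fold change over all genes tested was 0.06. These shares of all genes (1.46% higher, 0.708% lower, 4.39% wholly above and 3.95% wholly below) are the background for every list count below.

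Genes of the interferon-stimulated list, of which 54 were tested, made up 35 of the 239 genes higher and none of the 116 lower. The genes lower were less abundant, with a median mean abundance of 2.29 CPM against 11.6 CPM for those higher, and 40 of the 116 lay under 1 CPM against 54 of the 239. Protein-coding genes numbered 208 higher and 98 lower. The groups did not overlap for 118 of the 239 genes higher and 93 of the 116 lower. The counts moved with single libraries: without combination replicate 3, the stroma-rich one, 527 genes were higher and 368 lower, and without combination replicate 2 the numbers were 154 and 308. A stricter set, with groups that did not overlap, a mean of at least 1 CPM and the nominal thresholds passed whichever library was left out, held 30 genes higher and 21 lower. Of the 30, 7 were on the interferon-stimulated list, 3 were Ly6 genes and 6 had predicted or clone names, which left 14 to describe. Some of these 14 are also known to respond to interferon (below). Of the 21 lower genes, 19 carried regular names.

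**Figure D1:**
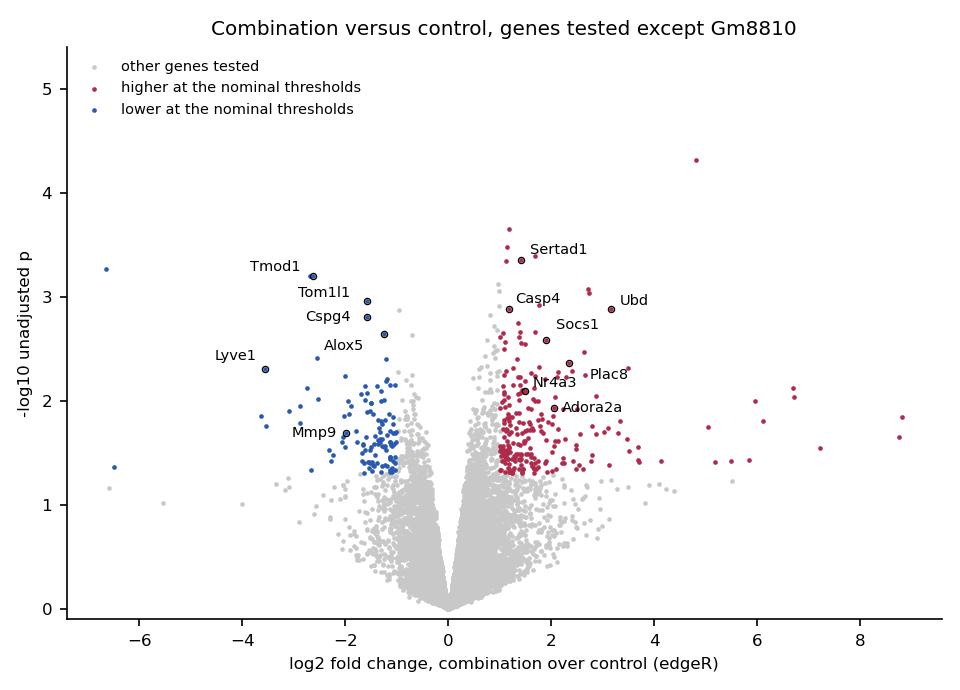
Fold change and unadjusted p of the genes tested. The horizontal axis gives the edgeR log2 fold change of the combination over control and the vertical axis the negative log10 of the unadjusted p, each point being 1 gene, red where higher and blue where lower at the nominal thresholds, with circled genes named. The transcript Gm8810, with no count in any control library, lies off the scale and is left out. Red points outnumber blue ones (239 genes were higher, Gm8810 included, and 116 lower).

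Among the lists, that of resident and perivascular macrophages held the most genes lower at the nominal thresholds. Of 24 genes tested, 7 were lower and 1 was higher at the nominal thresholds, 18 had a negative log2 fold change, and the list median was -0.62 against 0.06 for all genes, ranging from -1.12 to -0.48 with 1 library left out. The groups did not overlap, with the combination below control, for 8 of the 24 genes (against 3.95% of all genes). For 2 of the 24 the combination lay wholly above control (against 4.39%). The mean log2 CPM of the list was 5.98, 5.15 and 5.48 in control and 4.45, 5.69 and 4.32 in the combination. Combination replicate 2 thus lay above control replicates 2 and 3. Doxorubicin alone had list means of 5.26, 5.79 and 4.54. The list median was -0.21 for doxorubicin alone over control and -0.33 for the combination over doxorubicin. In bulk samples, fewer cells of a type and less RNA per cell cannot be told apart. For the pan-macrophage genes the groups overlapped. Adgre1 lay at 469, 354 and 250.3 CPM in control and 231, 349 and 216 CPM in the combination, and Cd68 at 828, 711 and 945 CPM and 833, 917 and 431 CPM. Csf1r was at 1498, 876 and 1309 CPM and 1025, 1206 and 638 CPM, and C1qa at 1868, 1422 and 2708 CPM and 737, 2463 and 1163 CPM. For each of these and for Lyz2 the lowest library was a combination library. Whether macrophage content as a whole differed was not tested.

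Lyve1 (gene ID 114332, chr7:110850607-110862953 in GRCm38.p6), the hyaluronan receptor of perivascular macrophages and lymphatic vessels, lay at 68.7, 35 and 32.9 CPM in control and 0.998, 9.13 and 1.52 CPM in the combination. Every combination library was below every control library, and the log2 fold change was -3.56 (SE 0.97, edgeR unadjusted p = 0.00492, adjusted p = 0.948). It passed the nominal thresholds whichever library was left out, with log2 fold changes from -5.17 to -3.13. The doxorubicin libraries held 39.5, 44.3 and 6.44 CPM, of which the third was near the combination.

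Vsig4, the complement receptor CRIg of resident macrophages, lay at 15.5, 8.35 and 13 CPM in control and 1.33, 6.48 and 1.33 CPM in the combination (log2 fold change -2.01, SE 0.77). Fcna, which encodes the soluble lectin ficolin A, was at 62.6, 49.2 and 86.3 CPM and 9.18, 35.2 and 12.9 CPM (-1.79, SE 0.63), and F13a1, the A subunit of coagulation factor XIII, at 799, 557 and 440.1 CPM and 319.7, 290.2 and 90.7 CPM (-1.36, SE 0.51). In each of these genes the groups were apart, and combination replicate 2 or 1 was the nearest to control. Stab1, a scavenger receptor, had a log2 fold change of -1.03 (SE 0.43), Gas6, a ligand of the TAM receptors that take part in the clearance of dead cells, -1.13 (SE 0.49), and Cd163, the haptoglobin-haemoglobin receptor, -1.68 (SE 0.69). These 6 calls each depended on single libraries. Fcna was lost without control replicate 3 (-1.57), combination replicate 1 (-1.52) and combination replicate 3 (-1.57), F13a1 without control replicate 1 (-1.09) and combination replicate 3 (-0.97), and Vsig4 without control replicate 1 (-1.81), control replicate 3 (-1.99), combination replicate 1 (-1.71) and combination replicate 3 (-1.65). Stab1 was lost without control replicate 1 (-0.92), control replicate 2 (-0.98), combination replicate 1 (-1.05) and combination replicate 3 (-0.79), Gas6 without control replicate 1 (-1.15), control replicate 2 (-1.2), control replicate 3 (-1.03), combination replicate 1 (-0.91) and combination replicate 3 (-0.98), and Cd163 without control replicate 1 (-1.13), control replicate 3 (-1.74), combination replicate 1 (-1.71) and combination replicate 3 (-1.37). Stab1 and Gas6 each overlap a neighboring gene in the annotation, to which some of their reads could belong.

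Other markers of resident macrophages varied more. Mrc1, the mannose receptor, lay at 1220.2, 940.1 and 1026 CPM in control and 334, 846 and 586 CPM in the combination, apart but short of the thresholds (log2 fold change -0.85, SE 0.48, unadjusted p = 0.111 by edgeR). Folr2, the folate receptor beta, overlapped between groups (179.7, 200 and 205 against 130.4, 258 and 77.7 CPM, log2 fold change -0.33, SE 0.44), as did Mertk (-0.91, SE 0.42), Cbr2 (-0.66, SE 0.45) and Timd4 (0.74, SE 0.65). Cd5l, a secreted scavenger protein of macrophages, went the other way at 9.2, 1.15 and 0.869 CPM and 12.2, 34.8 and 15.3 CPM (log2 fold change 2.48, SE 0.96). Its call was lost without control replicate 2 (2.05), control replicate 3 (2.0) and combination replicate 2 (1.88). The list name thus did not hold for every member.

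A further set of macrophage receptors was lower, named here after its values were seen. The first is in the patrolling monocyte list, which as a whole leaned higher: 11 of 15 genes were positive, with a median of 0.42 (0.16 to 0.77 with 1 library left out). Cx3cr1, the fractalkine receptor and the 1 gene lower in that list (0 of 15 were higher), lay at 314, 199.9 and 481 CPM in control and 98.3, 234 and 101 CPM in the combination (log2 fold change -1.2, SE 0.47). Fcrls, an Fc receptor-like protein, was at 216, 73.4 and 549 and 33.9, 118 and 51.8 CPM (-2.04, SE 0.75), and P2ry12, an ADP receptor, at 50.3, 34.3 and 71.3 and 11.9, 37.4 and 12.3 CPM (-1.34, SE 0.47). Combination replicates 1 and 3 were low in all of them, and combination replicate 2 lay within the control range. Their calls were lost when control replicate 3, the highest library, was left out (log2 fold changes -0.85, -1.11 and -1.06), and also without combination replicate 1 (-1.05, -1.79 and -1.13) or combination replicate 3 (-1.0, -1.88 and -1.08). Cx3cr1 was lost without control replicate 1 as well (-1.24). Cd33, a sialic acid-binding receptor of myeloid cells, passed in all 6 such fits at -1.24 (SE 0.38), although control replicate 2 (32.7 CPM) lay below combination replicate 2 (41.1 CPM).

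**Figure D2:**
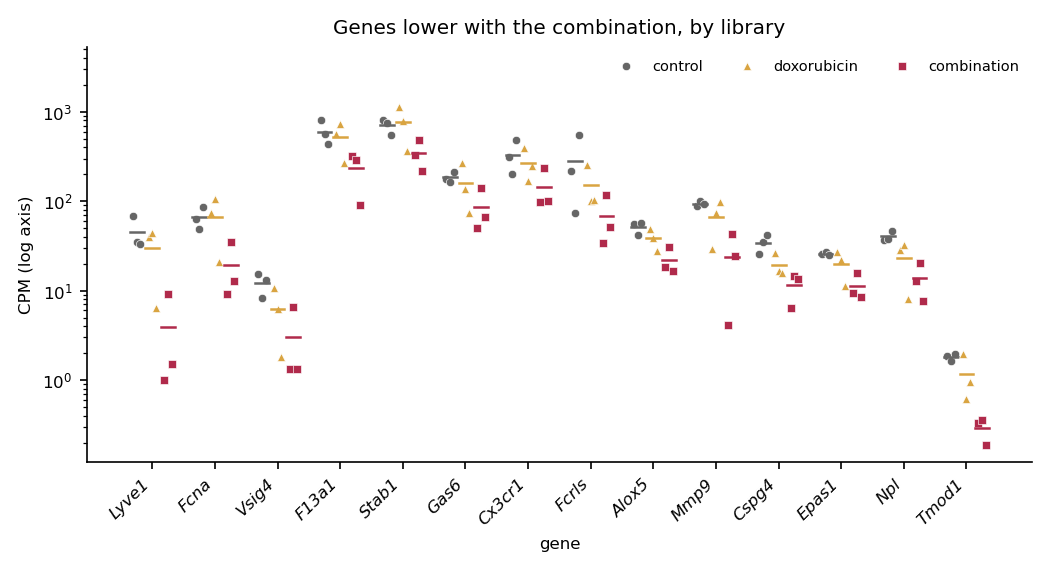
Abundance of 14 genes lower at the nominal thresholds, in CPM on a log axis, with 1 point per library for control, doxorubicin alone and the combination and a bar at each mean. For Lyve1 the combination libraries lie between 0.998 and 9.13 CPM and the control libraries between 32.9 and 68.7 CPM, while for Cx3cr1 and Fcrls the groups overlap.

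Beyond Lyve1, 14 lower genes of the stricter set were named by the smallest p, none of them on the resident macrophage list. They are given here with other lower genes. Tmod1, a cap of actin pointed ends, lay at 1.84, 1.64 and 1.96 CPM in control and 0.333, 0.357 and 0.189 CPM in the combination (log2 fold change -2.63, SE 0.52, unadjusted p = 0.000628 by edgeR, DESeq2 adjusted p = 0.00265). Tom1l1, an endosomal adaptor protein, was at 2.85, 3.43 and 3.01 CPM and 1.16, 1.15 and 0.794 CPM (-1.58, SE 0.34, DESeq2 adjusted p = 0.00307). The combination libraries of both genes lay close together and well under control. Both overlap another gene in the annotation (Tstd2 and Cox11), to which some reads could belong. Cspg4, the proteoglycan NG2 of pericytes and many tumor cells, lay at 25.4, 35 and 42.1 CPM in control and 6.47, 14.6 and 13.4 CPM in the combination (-1.58, SE 0.35, DESeq2 adjusted p = 0.037). In neither group was the stroma-rich library the highest for this gene. Replicate 1, with the lowest fibroblast mean of each group, was the lowest for it in both groups (25.4 and 6.47 CPM). Its log2 fold change was -1.61 with the fibroblast mean as a covariate, and the part of pericytes or tumor cells was not tested.

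Alox5, the 5-lipoxygenase that opens leukotriene synthesis, lay at 55.3, 42.3 and 57.3 CPM in control and 18.2, 30.8 and 16.5 CPM in the combination. The groups were apart and the log2 fold change was -1.24 (SE 0.3, edgeR unadjusted p = 0.00228). Doxorubicin alone held 49, 38.6 and 27.5 CPM. Hpgds, the synthase of prostaglandin D2, was also lower (73.7, 42.8 and 90.8 against 22, 51.5 and 23.6 CPM, log2 fold change -1.09, SE 0.42), with combination replicate 2 inside the control range. Its call was lost without control replicate 1 (-1.04), control replicate 3 (-0.86), combination replicate 1 (-0.94) and combination replicate 3 (-0.91). Epas1, which encodes the hypoxia-inducible factor HIF-2alpha, lay at 25.8, 26.8 and 25 CPM and 9.42, 15.7 and 8.5 CPM (-1.21, SE 0.34). Its control libraries differed by less than 2 CPM, and all combination libraries were below them.

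Mmp9, gelatinase B, is carried by neutrophils and by macrophages. Its level was 88.4, 101 and 92.3 CPM in control and 4.12, 42.6 and 24.3 CPM in the combination, with the groups apart and a log2 fold change of -1.99 (SE 0.71), and it was the 1 gene lower of 18 neutrophil genes and of 21 matrix metalloproteinase and TIMP genes. Timp1, the inhibitor of that class of enzyme, was at 13.9, 47.8 and 20.9 CPM and 61.3, 35.7 and 113 CPM (log2 fold change 1.35, SE 0.51), with its highest values in the stroma-rich library of each group, and its call was lost without control replicate 1 (1.03), control replicate 3 (1.17) and combination replicate 3 (0.82). Ctsk, cathepsin K, was lower at -1.55 (SE 0.64), from 60.9, 118 and 113 CPM to 9.35, 69.6 and 20.3 CPM, and was lost without control replicate 2 (-1.39), control replicate 3 (-1.46), combination replicate 1 (-1.17) and combination replicate 3 (-1.3). Npl, which splits sialic acid, lay at 36.9, 38.2 and 46.8 CPM and 12.9, 20.6 and 7.65 CPM (-1.57, SE 0.51) and passed whichever library was left out.

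The other lower genes of the stricter set were signalling, transport and membrane genes, most of them under 15 CPM. Adcy3, an adenylyl cyclase, lay at 12.2, 13.7 and 10.8 CPM in control and 1.72, 7.28 and 2.99 CPM in the combination (-1.62, SE 0.5). Slc9b2, a sodium-proton exchanger, was at 5.97, 8.9 and 14.6 and 0.924, 4.97 and 2.09 CPM (-1.89, SE 0.6), and Rgs7bp, a partner of RGS proteins that end G protein signals, at 3.74, 2.33 and 3.14 and 0.296, 0.776 and 0.31 CPM (-2.74, SE 0.8). In all of them control and combination were apart. Log2 fold changes were -1.38 for Nynrin, -1.32 for the cannabinoid receptor partner Cnrip1, -1.95 for the lysozyme-like Lyzl4, -1.31 for Mamld1, -1.49 for Megf9, -1.52 for the Ras exchange factor Rasgrp3 and -1.47 for the neurotrophic factor receptor Gfra4. Pcdhga10 (-2.52) shares its last exons with the other gamma protocadherins, so its counts are uncertain. Oscar, a collagen receptor of myeloid cells, was at 1.72, 1.01 and 1.7 CPM and 0, 0.315 and 0.202 CPM, with 0, 15 and 15 counts in the combination libraries, and Zfp2 at 0.904, 0.643 and 0.961 CPM and 0.0739, 0.147 and 0.162 CPM (DESeq2 adjusted p = 0.00965). Oscar and Zfp2 had means under 1 CPM and so are not in the stricter set. DESeq2 also called Deptor, an inhibitor of mTOR, at 23.9, 18 and 20.9 against 9.61, 13.3 and 9.32 CPM (edgeR log2 fold change -0.96, SE 0.21, DESeq2 adjusted p = 0.025), where doxorubicin alone held 12.7, 12.5 and 12.3 CPM, and the transcript 4933406C10Rik, with 10, 10 and 17 counts in control and 0 in each combination library.

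Cell cycle genes leaned lower without single calls. Of 37 genes, 35 had a negative log2 fold change and 0 were called in either direction at the nominal thresholds, with a median of -0.25 (from -0.65 to -0.10 with 1 library left out). Mki67, the proliferation antigen, lay at 221, 175 and 183 CPM in control and 99.3, 115 and 166 CPM in the combination (log2 fold change -0.61, SE 0.33, unadjusted p = 0.0942 by edgeR). E2f8, a late cell cycle repressor, was at 36.1, 24.9 and 35 and 18.3, 19.3 and 21.3 CPM (-0.71, SE 0.2). These were the 2 genes of the list with groups apart, and of the combination libraries replicate 3, rich in stromal transcripts, held the most. The mean log2 CPM of the list was 5.8, 6.02 and 5.88 in control and 5.22, 5.26 and 6.17 in the combination, so that combination replicate 3 lay above every control library and the other combination libraries below. Doxorubicin alone had 176, 95.9 and 75.9 CPM of Mki67.

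Immediate early genes and feedback regulators were among the genes higher outside the interferon and Ly6 families. Of 25 AP-1 and immediate early genes, 22 had a positive log2 fold change, 3 were higher and 0 were lower, with a median of 0.44. Some members, Egr1, Fosb, Fosl2 and Gem, are also in a gene set that the study drew from these libraries, higher than with doxorubicin alone. The counts of this list are therefore descriptive. Sertad1 (gene ID 55942, chr7:27486953-27490316 in GRCm38.p6), a transcription regulator that binds CDK4, lay at 23, 35.1 and 33.7 CPM in control and 88, 97.4 and 59.7 CPM in the combination. The groups were apart, the log2 fold change was 1.42 (SE 0.27, edgeR unadjusted p = 0.000446, DESeq2 adjusted p = 0.00929), and it passed with any library left out. Errfi1, a feedback inhibitor of the EGF receptor, lay at 67.1, 149 and 40.7 CPM and 254, 169 and 243 CPM (1.38, SE 0.42). Its highest control library, replicate 2, was just under its lowest combination library. Maff, a small Maf factor, was at 28.5, 49.2 and 24.2 and 68.7, 119 and 58 CPM (1.27, SE 0.34), and was lost without combination replicate 2 (0.9). Fos itself leaned the other way, at 1902, 1879 and 2331 CPM in control and 1483, 1755 and 1517 CPM in the combination, apart but short of the thresholds (-0.36, SE 0.21, unadjusted p = 0.124 by edgeR).

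Genes of cyclic AMP and NR4A signalling leaned higher as a list in combination replicates 1 and 2. Of 22 tested, 7 were higher and 0 lower at the nominal thresholds, 19 had a positive log2 fold change and the median was 0.50 (0.25 to 0.78 with 1 library left out). The 7 were Dusp2, Dusp5, Crem, Nr4a3, Adora2a, Adora2b and Areg. Combination replicates 1 and 2 were high in all of them and combination replicate 3, which had the least Ptprc and the most fibroblast transcripts, lay within or near the control range. All combination libraries lay above all control libraries for 1 of the 22 genes, Crem (against 4.39% of all genes). The mean log2 CPM of the list was 5.99, 6.11 and 5.67 in control and 6.80, 6.97 and 5.65 in the combination. Combination replicate 3 thus lay below every control library. The list median was 0.44 with the fibroblast mean as a covariate and 0.89 without the stroma-rich library of each group. Its members Nr4a2 and Pde4b are in the study's gene set named above, so the counts of this list too are descriptive.

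Crem, a CREB-family modulator, lay at 33.4, 37.1 and 28.2 CPM in control and 88.3, 133 and 37.4 CPM in the combination (1.39, SE 0.39), and Nr4a3, an orphan nuclear receptor, at 31.3, 41.9 and 24.8 CPM and 84.6, 153 and 37 CPM (1.48, SE 0.44). Both were lost without combination replicate 2 (0.93 and 0.9). Dusp2, a phosphatase of MAP kinases, was at 22.9, 46.3 and 27.5 and 115, 138 and 40.2 CPM (1.6, SE 0.44) and kept its call in all 6 fits, while the related Dusp5 (1.25, SE 0.47) was lost without control replicate 1 (1.3), control replicate 3 (0.95), combination replicate 1 (1.04) and combination replicate 2 (0.99). Areg, amphiregulin, an EGF receptor ligand, was at 9.06, 19.1 and 7.13 CPM and 45.3, 88.8 and 10.3 CPM (2.03, SE 0.67). It was lost without control replicate 3 (1.76) and combination replicate 2 (1.24). Against doxorubicin alone the log2 difference was 2.7 for Areg, 2.21 for Nr4a3 and 1.52 for Crem, a comparison that shares the combination libraries.

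Receptors for adenosine were among the genes higher. Adora2a, a high-affinity adenosine receptor, lay at 4.09, 4.72 and 1.52 CPM in control and 21.5, 17.5 and 3.84 CPM in the combination (2.05, SE 0.65) and passed in all 6 fits, although combination replicate 3 was below 2 control libraries. Adora2b was at 17.4, 17.1 and 12.1 and 58.9, 49.1 and 13.2 CPM (1.38, SE 0.47), and was lost without control replicate 3 (1.24) and combination replicate 1 (0.96). In the eicosanoid and adenosine list as a whole, 5 of 25 genes were higher and 2 lower with a median of 0.15, the lower ones being Alox5 and Hpgds. Besides Adora2a and Adora2b, those higher included Ltb4r1, the leukotriene B4 receptor (1.15, SE 0.44), and Slco2a1, a prostaglandin transporter (1.66, SE 0.73). Ltb4r1 was lost without control replicate 2 (1.05), control replicate 3 (0.98) and combination replicate 1 (0.69) and Slco2a1 without control replicate 1 (1.49), control replicate 3 (1.3), combination replicate 1 (1.42) and combination replicate 3 (1.28).

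**Figure D3:**
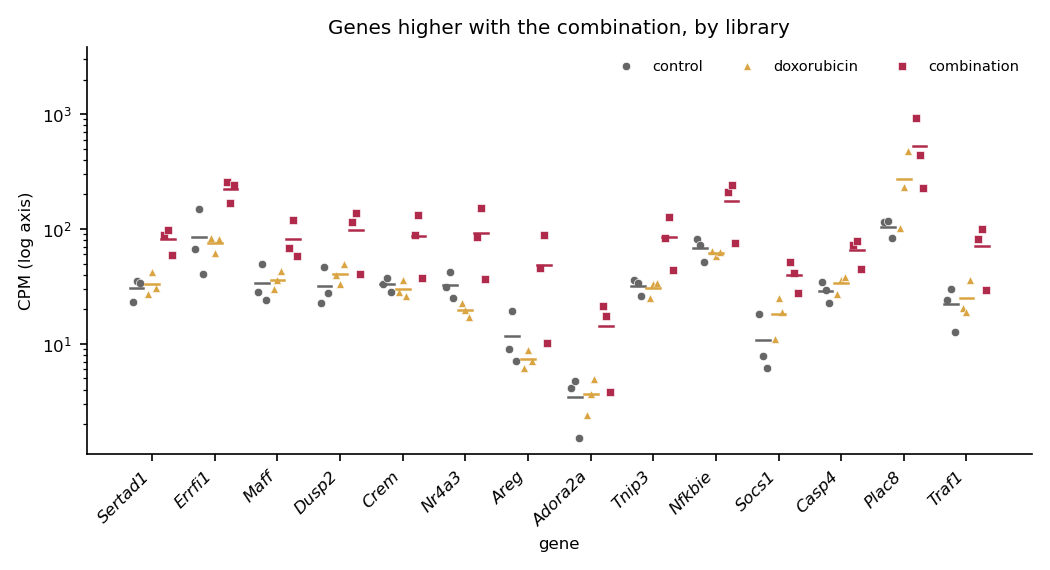
Abundance of 14 genes higher at the nominal thresholds, in CPM on a log axis, with 1 point per library for control, doxorubicin alone and the combination and a bar at each mean. Combination replicate 3 is the lowest combination library for most genes, as for Areg at 10.3 CPM, and Socs1 lies between 27.7 and 51.2 CPM against 6.21 to 18.1 CPM in control.

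NF-kappaB targets were positive throughout the list, and those called include inhibitors of the pathway. All 30 tested had a positive log2 fold change, 8 were higher and 0 lower, and the median was 0.89 (0.51 to 1.16 with 1 library left out). Some members, such as Il1a, Rel, Nlrp3 and Ptx3, are also in the gene set that the study drew from these libraries, higher than with doxorubicin alone. Tnip3, a partner of the inhibitor A20, lay at 35.8, 33.7 and 26.2 CPM in control and 83.4, 127 and 43.6 CPM in the combination (1.41, SE 0.35), with the groups apart, and was lost without combination replicate 2 (0.99). Nfkbie, the inhibitor IkappaB epsilon, was at 81.1, 72.3 and 51.3 CPM and 209, 243 and 75.5 CPM (1.36, SE 0.38), and Traf1, a TNF receptor adaptor, at 24, 30.2 and 12.6 and 82, 99.8 and 29.5 CPM (1.66, SE 0.49). Both passed in all 6 fits, although combination replicate 3 lay inside the control range. Cd40, a costimulatory receptor, was at 39.8, 22.1 and 23.9 and 62.7, 88.3 and 27.7 CPM (1.06, SE 0.4) and was lost without control replicate 2 (0.9), control replicate 3 (0.94), combination replicate 1 (0.97) and combination replicate 2 (0.66). Nfkb2, a subunit of the pathway, was apart between groups at 86.7, 107 and 73 and 123, 153 and 145 CPM with a log2 fold change under the threshold (0.66, SE 0.2).

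Further genes of the stricter set encode feedback and effector proteins of inflammation. Socs1, the inhibitor of JAK kinases, lay at 18.1, 7.9 and 6.21 CPM in control and 51.2, 41.1 and 27.7 CPM in the combination (1.9, SE 0.46, DESeq2 adjusted p = 0.0497), and Casp4, the mouse caspase-11 of the non-canonical inflammasome, at 34.4, 29.7 and 22.7 CPM and 73, 78.9 and 44.9 CPM (1.18, SE 0.26). Ubd, the ubiquitin-like FAT10, was at 2.23, 2.14 and 0.407 CPM and 5.45, 16 and 21.5 CPM (3.16, SE 0.69, DESeq2 adjusted p = 0.00208). The groups were apart in all of them, and these genes, with Ifitm1 (1.17, SE 0.37), are also known to respond to interferon although they were not in the interferon list. Fam110a, called by DESeq2 alone (adjusted p = 0.0497), was apart at 14.3, 17.6 and 16.7 and 40.1, 31.7 and 25.1 CPM (0.99, SE 0.21). The remaining genes of the set were Pgf, placental growth factor (3.95, 3.26 and 2.29 against 8.22, 9.94 and 6.61 CPM, 1.38, SE 0.33), the GTPase Rrad (1.49, SE 0.37), the glutathione transferase Gstt1 (1.88, SE 0.53), the CDC42 effector Cdc42ep2 (1.36, SE 0.41), Spats2l (1.65, SE 0.51) and cyclin O, Ccno (1.69, SE 0.52). Toll-like receptor and inflammasome genes did not move as a list, with 3 of 26 higher, 0 lower and a median of 0.11.

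Promoters are shown for members of these groups that differ in the letters they carry, so that the motif matches can be read against the values above. The windows run from 250 bases before to 50 after a RefSeq start site (RefSeq, GRCm38.p6, the build of the mm10 alignment) and were searched on both strands for GGGANTTTC and GGGANTTCC (kappaB-type), TGACGTCA and its core TGACG (cyclic AMP response element, the second lying within the first), TGANTCA (AP-1) and AAANNGAAA (interferon element core). Capitals mark every match, and each sequence is given 5′ to 3′ on the strand of its gene.
Areg, chr5:91139349-91139648, plus strand: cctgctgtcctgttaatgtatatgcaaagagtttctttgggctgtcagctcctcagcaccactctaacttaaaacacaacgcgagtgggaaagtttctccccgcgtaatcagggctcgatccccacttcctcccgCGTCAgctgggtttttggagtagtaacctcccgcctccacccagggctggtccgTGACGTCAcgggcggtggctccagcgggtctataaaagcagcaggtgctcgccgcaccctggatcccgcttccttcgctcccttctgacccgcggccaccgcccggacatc
Nr4a3, chr4:48045055-48045354, plus strand: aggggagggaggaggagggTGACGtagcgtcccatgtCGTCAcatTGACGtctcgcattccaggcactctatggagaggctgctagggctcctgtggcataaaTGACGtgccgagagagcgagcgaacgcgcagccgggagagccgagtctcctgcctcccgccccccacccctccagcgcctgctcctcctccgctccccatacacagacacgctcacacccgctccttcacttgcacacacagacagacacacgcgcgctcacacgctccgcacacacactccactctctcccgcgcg
Errfi1, chr4:150854820-150855119, plus strand: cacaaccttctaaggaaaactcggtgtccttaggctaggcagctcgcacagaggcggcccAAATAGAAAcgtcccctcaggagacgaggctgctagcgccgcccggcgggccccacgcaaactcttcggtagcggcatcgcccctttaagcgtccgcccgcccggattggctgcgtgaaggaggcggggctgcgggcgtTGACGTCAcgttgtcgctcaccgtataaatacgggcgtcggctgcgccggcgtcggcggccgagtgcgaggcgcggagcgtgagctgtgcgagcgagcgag
Socs1, chr16:10785487-10785786, minus strand: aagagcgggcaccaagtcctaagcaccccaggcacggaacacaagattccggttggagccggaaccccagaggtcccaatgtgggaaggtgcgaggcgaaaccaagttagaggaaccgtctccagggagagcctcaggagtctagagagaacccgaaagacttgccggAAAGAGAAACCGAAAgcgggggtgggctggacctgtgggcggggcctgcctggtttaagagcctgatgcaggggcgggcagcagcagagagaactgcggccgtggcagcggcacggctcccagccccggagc
Tnip3, chr6:65590148-65590447, plus strand: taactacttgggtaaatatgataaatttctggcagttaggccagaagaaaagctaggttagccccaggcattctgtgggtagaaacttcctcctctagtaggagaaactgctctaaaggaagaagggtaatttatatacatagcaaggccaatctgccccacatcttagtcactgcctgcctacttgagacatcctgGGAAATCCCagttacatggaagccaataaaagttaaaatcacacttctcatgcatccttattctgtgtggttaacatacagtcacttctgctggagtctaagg
Casp4, chr9:5308599-5308898, plus strand: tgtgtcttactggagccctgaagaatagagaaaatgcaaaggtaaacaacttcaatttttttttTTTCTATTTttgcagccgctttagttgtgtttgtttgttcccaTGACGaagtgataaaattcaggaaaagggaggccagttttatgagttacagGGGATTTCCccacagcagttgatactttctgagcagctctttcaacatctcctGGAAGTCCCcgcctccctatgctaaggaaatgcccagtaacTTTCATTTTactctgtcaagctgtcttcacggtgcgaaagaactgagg
Alox5, chr6:116461129-116461428, minus strand: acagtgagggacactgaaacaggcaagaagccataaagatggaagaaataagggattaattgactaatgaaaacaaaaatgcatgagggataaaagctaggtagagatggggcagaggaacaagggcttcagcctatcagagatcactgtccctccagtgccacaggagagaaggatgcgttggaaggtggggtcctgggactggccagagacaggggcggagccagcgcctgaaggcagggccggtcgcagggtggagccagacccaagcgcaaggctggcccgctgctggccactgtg
Cspg4, chr9:56864854-56865153, plus strand: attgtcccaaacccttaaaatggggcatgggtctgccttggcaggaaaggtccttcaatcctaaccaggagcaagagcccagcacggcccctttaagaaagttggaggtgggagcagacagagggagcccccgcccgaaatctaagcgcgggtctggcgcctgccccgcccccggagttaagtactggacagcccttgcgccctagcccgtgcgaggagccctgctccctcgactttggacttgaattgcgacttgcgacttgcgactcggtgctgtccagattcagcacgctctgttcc
Areg and this Errfi1 window held a whole TGACGTCA, and Nr4a3 held 4 copies of the core. Socs1 held a pair of overlapping interferon cores, Tnip3 1 kappaB-type match and Casp4 a kappaB-type pair with matches to the interferon core and the cyclic AMP core. No match was found in the windows of Alox5 and Cspg4, which were among the genes lower. Other lower genes held matches: of the named genes of the stricter set with a window, TGACG was in 3 of 12 lower (25%) and 3 of 13 higher (23.1%), and AAANNGAAA in 1 of 12 (8.33%) and 5 of 13 (38.5%).

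Among promoter windows of all 27025 genes in the table, 20.8% of 32851 windows held TGACG and 1.79% TGACGTCA, 1.68% held GGGANTTCC and 1.11% GGGANTTTC, 7.81% held TGANTCA and 10.6% AAANNGAAA. Of the 22 cyclic AMP and NR4A genes, 15 had a window, and 11 of these (73.3%) held TGACG against 33.2% of the 11805 tested genes with a window. The whole element was in 2 of the 15 (13.3%, against 3.24%). Of the 30 NF-kappaB targets, 23 had a window, with GGGANTTCC in 6 (26.1%, against 2.68%), GGGANTTTC in 3 (13%, against 1.27%) and TGANTCA in 7 (30.4%, against 6.93%). Of the 24 resident macrophage genes, 19 had a window and 0 held either kappaB-type motif, 5 held TGACG (26.3%) and 4 AAANNGAAA (21.1%, against 10.2%). Lyve1, Mmp9, Epas1, Adora2a and Crem are named without a sequence. The lists were drawn up from known pathway genes, with earlier results of these data known. These shares therefore describe the lists and are not a result of the treatment.

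Monocyte and neutrophil genes leaned higher in combination replicates 1 and 2. Of 22 inflammatory monocyte genes other than Ly6, 4 were higher, 0 lower and 18 positive, with a median of 0.90 (0.63 to 1.24 with 1 library left out). The mean log2 CPM of that list was 7.32, 6.9 and 6.76 in control and 8.19, 7.98 and 6.7 in the combination. Combination replicate 3 thus lay below every control library. Plac8, a small protein of monocytes and other myeloid cells, lay at 115, 116 and 84.2 CPM in control and 928, 437 and 228 CPM in the combination (2.34, SE 0.62, DESeq2 adjusted p = 0.0497). Its groups were apart by a wide margin in replicates 1 and 2 of the combination, and doxorubicin alone spanned both groups at 102, 234 and 479 CPM. S100a6, a calcium-binding protein, was at 409, 593 and 637 and 1517, 902 and 1069.7 CPM (1.09, SE 0.3) and was lost without control replicate 1 (0.92) and combination replicate 1 (0.79). Ms4a4c was at 173, 95.5 and 155 and 539.7, 439 and 107 CPM (1.36, SE 0.54), overlapping in combination replicate 3, and was lost without control replicate 2 (1.14), control replicate 3 (1.44), combination replicate 1 (0.9) and combination replicate 2 (1.2). Among 18 neutrophil genes, 2 were higher, 1 (Mmp9) was lower and 15 were positive. Their mean log2 CPM was 2.57, 0.49 and 1.52 in control and 2.84, 2.99 and 1.07 in the combination, where replicate 3 lay within the control range. The neutrophil list median was 1.01, beside 1.27 for doxorubicin alone over control and -0.21 for the combination over doxorubicin. Cd177, a surface protein of neutrophils, lay at 1.95, 1.72 and 1.16 CPM and 15, 5.77 and 2.96 CPM (2.29, SE 0.64).

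Acute phase and metabolic genes of activated myeloid cells were also positive as lists. Of 18 acute phase and antimicrobial genes, 4 were higher and 0 lower with a median of 0.91 (0.35 to 1.52 with 1 library left out). For that list the median was 0.85 for doxorubicin alone over control and 0.45 for the combination over doxorubicin. Slpi, a secreted protease inhibitor, lay at 22.9, 18.4 and 16 CPM in control and 89.4, 77.4 and 25.2 CPM in the combination (1.74, SE 0.59) and was lost without control replicate 3 (1.64) and combination replicate 1 (1.38). Hp, haptoglobin, had a log2 fold change of 1.69 (SE 0.71) and was lost without control replicate 2 (1.47), control replicate 3 (1.63), combination replicate 1 (1.19) and combination replicate 2 (1.54). All 16 genes of arginine, nitric oxide, itaconate and tryptophan metabolism were positive with a median of 0.81, and 2 were higher. Arg2, the mitochondrial arginase, lay at 52, 56.9 and 46.3 CPM and 161, 198 and 49.7 CPM (1.4, SE 0.42) and passed in all 6 fits, although combination replicate 3 lay within the control range. Nos2, inducible nitric oxide synthase, ranged over 91.9, 23.6 and 7.84 CPM in control and 183, 236 and 35.4 CPM in the combination, which overlapped (1.88, SE 0.88, unadjusted p = 0.0614 by edgeR). Ido1, which degrades tryptophan, rested on combination replicate 3 at 8.94 CPM, and its log2 fold change of 2.43 (SE 1.0) was 0.38 without that library. It was lost without control replicates 1 (2.23) and 3 (1.99) too.

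Most MHC class I genes had small positive differences with groups apart, while class II genes varied more between libraries. Of 25 MHC class I presentation genes, 24 were positive and 17 had all combination libraries above all control libraries (against 4.39% of all genes), while 5 passed the fold threshold as well. The median of 0.89 ranged from 0.69 to 1.00 with 1 library left out. For doxorubicin alone over control the class I median was 0.45, and for the combination over doxorubicin it was 0.34. H2-K1, a classical heavy chain, lay at 623, 565 and 474 CPM in control and 989, 1092 and 1229 CPM in the combination (0.99, SE 0.22, DESeq2 adjusted p = 0.019), and B2m, the shared light chain, at 2629, 2106 and 2265 CPM and 3445, 4294 and 3194 CPM (0.64, SE 0.26). Doxorubicin alone held 853, 921 and 677 CPM of H2-K1, each above every control library. H2-T22, a non-classical heavy chain, was at 124, 90.1 and 80.4 and 240, 212 and 189 CPM (1.12, SE 0.21, DESeq2 adjusted p = 0.00965) and was lost without control replicate 3 (0.99) and combination replicate 1 (0.98). H2 genes are near-identical copies of one another and the alignment used the C57BL/6J genome for BALB/c cells, so single H2 genes are uncertain, and the part of this in the values was not tested. Psme2, an activator subunit of the proteasome, was apart at 202, 174 and 190.5 and 541, 380 and 285 CPM (1.09, SE 0.33) and was lost without combination replicate 1 (0.76). The median of the 12 class II genes was 0.77 (0.51 to 1.11 with 1 library left out), all being positive and 3 higher, and the groups overlapped for all 12. For doxorubicin alone over control the class II median was 0.58, and for the combination over doxorubicin it was 0.17. H2-Aa lay at 853, 469.8 and 503 CPM and 818, 1968 and 998 CPM (1.05, SE 0.4), a difference carried by combination replicate 2, and was lost without control replicate 2 (0.9), control replicate 3 (0.92) and combination replicate 2 (0.58).

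Lymphocyte and other leukocyte lists spread widely between libraries. All 25 cytotoxic and NK cell genes had positive log2 fold changes (median 1.01), but 4 were higher at the nominal thresholds and the median ranged from 0.51 to 1.93 with 1 library left out. Ccl5, a chemokine of T and NK cells, lay at 19.5, 8.33 and 10.5 CPM in control and 46.7, 109 and 11.3 CPM in the combination (2.12, SE 0.79) and was lost without control replicate 2 (1.89), control replicate 3 (1.99) and combination replicate 2 (1.18). The study also counts Ccl5 as a type I interferon signature gene and reports it raised by doxorubicin in cultured sarcoma cells. Which cells carried it here was not tested. Klrk1, which encodes NKG2D, was at 35.1, 10 and 12.9 and 71.4, 60.3 and 18.6 CPM (1.37, SE 0.59), with groups that overlapped, and was lost without control replicate 2 (1.06), control replicate 3 (1.16), combination replicate 1 (0.98) and combination replicate 2 (1.22). Of 26 T cell genes, 0 were called, and the list median of 0.55 ranged from -0.36 to 1.06. With doxorubicin alone against control the medians were larger, 1.41 for the cytotoxic and NK cell list and 1.51 for the T cell list. The medians of the combination over doxorubicin were -0.42 and -1.06. Dendritic cell genes had 1 of 21 higher (median 0.60, ranging from 0.06 to 0.78), checkpoint and TNF superfamily genes 1 of 23 (0.60, from 0.19 to 0.92), B and plasma cell genes 2 of 12 (0.43, from 0.20 to 0.91), and mast cell, basophil and eosinophil genes 0 of 14 (0.77, ranging from -0.25 to 1.65). Chemokines had 4 of 27 higher and 0 lower with a median of 0.47, and the groups overlapped for every one of the 27.

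**Figure D4:**
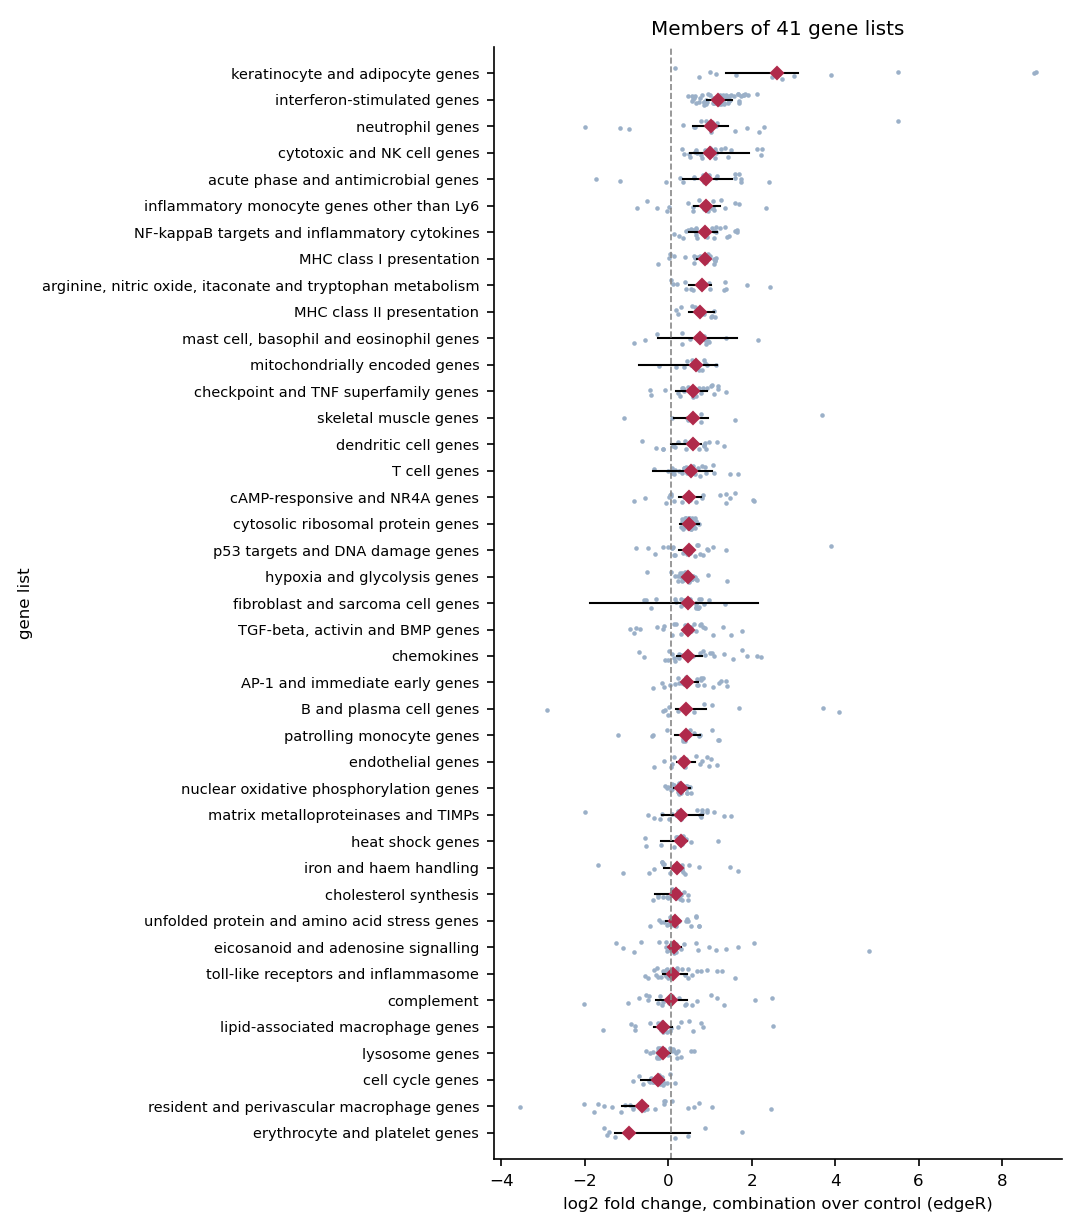
Log2 fold changes of the members of 41 gene lists, combination over control. Blue points are genes, red diamonds list medians, black lines the range of the median when each of the 6 libraries was left out, and the dashed line the median of all genes tested (0.06). Resident macrophage genes lie to the left (median -0.62), while the fibroblast median moves from -1.87 to 2.14 with single libraries.

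Glycolysis and ribosomal protein genes showed small positive differences, more even across libraries for glycolysis. Of 27 hypoxia and glycolysis genes, 26 were positive and 1 was higher at the nominal thresholds. For 12 of them all combination libraries lay above all control libraries (against 4.39% of all genes). The median was 0.48 (0.36 to 0.52 with 1 library left out). It was 0.31 for doxorubicin alone over control and 0.14 for the combination over doxorubicin. Slc2a1, the glucose transporter GLUT1, lay at 390.4, 339 and 259 CPM in control and 462, 559.7 and 448 CPM in the combination (0.57, SE 0.22), and Pgk1, a glycolytic kinase, at 1023, 1140.4 and 724 CPM and 1590.5, 1374 and 1409 CPM (0.6, SE 0.26). Combination was above control in every library for both genes, and doxorubicin alone held 416, 504 and 523 CPM of Slc2a1. All 50 cytosolic ribosomal protein genes had positive log2 fold changes (median 0.49, from 0.28 to 0.74 with 1 library left out) and none was called, and the groups overlapped for every one but Rpl9. Nuclear oxidative phosphorylation genes were positive in 29 of 32 (median 0.31). The mitochondrially encoded genes had a median of 0.66, which ranged from -0.71 to 1.16 and followed combination replicate 1, the library with 13.1% mitochondrial counts.

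Stress, lipid and lysosome lists lay nearer to the median of all genes. The medians were 0.17 for unfolded protein and amino acid stress genes (24 tested), 0.30 for heat shock genes (15), 0.18 for cholesterol synthesis (22), 0.20 for iron and haem handling (20), -0.13 for lysosome genes (28), -0.12 for lipid-associated macrophage genes (22) and 0.06 for complement (22). Of the genes in these lists, Cd163, Ctsk and Vsig4 (above) were lower, and Apoc1 and Cfb were higher. Among 24 p53 and DNA damage genes, 19 were positive (median 0.49) and 2 were higher. Gadd45b, a stress sensor, lay at 60, 115 and 57 CPM in control and 172, 318 and 120.5 CPM in the combination (1.4, SE 0.4), and was lost without combination replicate 2 (0.92). Gadd45a was at 11.7, 17.3 and 8.3 and 18.2, 37.2 and 22.9 CPM (1.07, SE 0.37) and was lost without control replicate 1 (1.03), control replicate 3 (0.83) and combination replicate 2 (0.72). Of 26 TGF-beta, activin and BMP genes, 3 were higher (median 0.47). Id1, an inhibitor of basic helix-loop-helix factors, was apart at 8.88, 7.6 and 7.15 and 24.4, 11.9 and 13.7 CPM (1.08, SE 0.32) and was lost without combination replicate 1 (0.65).

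Transcripts of other cell types were measured as well. Endothelial genes were positive in 16 of 18, with 2 higher and a median of 0.39 (0.20 to 0.65 with 1 library left out). For 7 of them all combination libraries lay above all control libraries (against 4.39% of all genes). The list median was 0.72 for doxorubicin alone over control and -0.13 for the combination over doxorubicin. Flt1, a receptor of VEGF and of placental growth factor, lay at 25.3, 11.9 and 11 CPM in control and 27.9, 40 and 40.5 CPM in the combination (1.17, SE 0.35), just apart, and was lost without control replicate 2 (0.99) and control replicate 3 (0.95). Doxorubicin alone had 23.6, 39.6 and 26.5 CPM. Keratinocyte and adipocyte genes were higher in 7 of 12, with a median of 2.60 (1.38 to 3.10 with 1 library left out). The list mean was highest in combination replicate 2, where Krt10 reached 28.6 CPM against at most 1.52 CPM in control, and its log2 fold change of 3.02 (SE 1.07) was lost without control replicate 1 (2.87), control replicate 3 (3.04) and combination replicate 2 (0.36). Car3, an adipocyte and muscle carbonic anhydrase, lay at 0.106, 0.26 and 0.185 CPM and 0.794, 1.85 and 1.04 CPM (2.72, SE 0.56, DESeq2 adjusted p = 0.0123). Skeletal muscle genes were higher in 2 of 9, and fibroblast genes in 0 of 26. The mean log2 CPM of the keratinocyte and adipocyte list was -1.59, -1.04 and -1.61 in control and -0.16, 1.99 and -0.67 in the combination, all above control. The part of such cells in the results above was not tested.

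The number of nominal calls depended on the libraries more than on scaling. It lay between 154 and 527 genes higher and between 79 and 368 lower with 1 library left out, and between 209 and 239 higher and 116 and 136 lower under the 3 scalings tried (TMM, relative log expression and upper quartile). With the stroma-rich library of each group removed, 516 genes were higher and 182 lower.

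**Figure D5:**
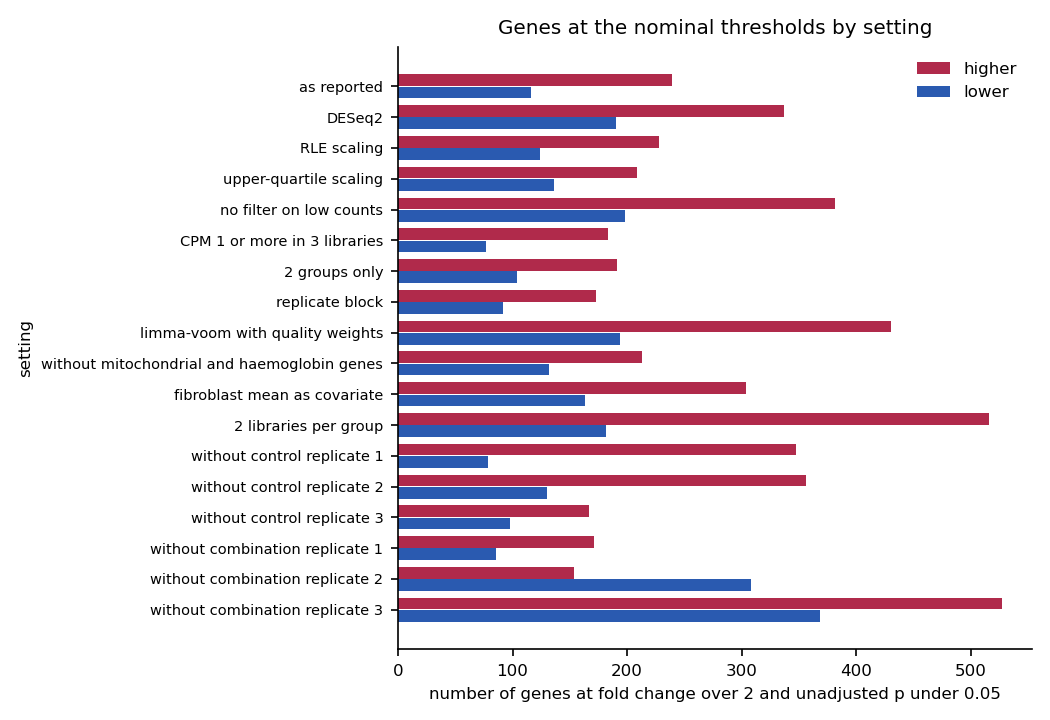
Number of genes higher (red) and lower (blue) at the nominal thresholds under each setting, with bars from 0. The top pair is the reported fit (239 and 116), and the largest numbers came without combination replicate 3 (527 and 368).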

How the data were processed

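RNA from CD45+ cells was made into stranded mRNA libraries (TruSeq) and sequenced as paired 100-base reads. Per the labels and the study's methods, the authors used Trimmomatic 0.38 for trimming, HISAT2 2.1.0 for alignment against mm10, SAMtools 1.9 for handling alignments and StringTie 2.1.3b for assembly and counting; the deposited values are raw counts per gene, and whether counting used strand is not given in the sources used here. The mm10 genome is C57BL/6J, and the mice were BALB/c. Counts of 45777 genes were filtered with filterByExpr (16373 kept), scaled by TMM and fitted over all 9 libraries with edgeR 4.0.16 (quasi-likelihood test, two-sided, Benjamini-Hochberg) in R 4.3.3. DESeq2 1.42.0, limma 3.58.1 (voom), other scalings, filters and subsets were alternatives. CPM are scaled by TMM. The test was tried on simulated data first.

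Calls at a fold change over 2 and an unadjusted p under 0.05 follow the study. Named genes were up to 15 in each direction, by p, among those with groups that did not overlap, a mean of at least 1 CPM and the thresholds passed with any of the 6 libraries left out, leaving out predicted names, interferon-stimulated and Ly6 genes; up to 4 members per list by p; and genes that DESeq2 called. Some genes that this rule names are not described, and one is not reported here. The text also names some genes picked with their values known. The comparison and its lists were chosen with earlier results of these data and the gene tables of the study known. Several lists share members with the gene set that the study drew from these libraries. List counts and medians are therefore descriptive. Gene coordinates come from RefSeq GRCm38.p6 by gene ID (16336 of the tested genes matched). Groups of 3 against 3 allow no exact permutation p below 0.1, so no permutation p is given. Depth was 52909751 to 69456603 counts in the 6 libraries.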

Additional observations from a re-analysis of the deposited data

How the results depend on the processing

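The number of genes higher at the nominal thresholds (239) became 381 without a filter on low counts, 430 in limma-voom with quality weights and 516 without the stroma-rich library of each group, and ranged from 154 (without combination replicate 2) to 527 (without combination replicate 3). The number lower (116) became 190 in DESeq2, 198 without the filter, 77 with a filter of 1 CPM in 3 libraries, 194 in limma-voom and 182 without both stroma-rich libraries, and ranged from 79 (without control replicate 1) to 368 (without combination replicate 3). Fewer or more genes were tested under the filters and fewer samples with libraries removed, and the cause of the other shifts was not tested. Genes at an adjusted p under 0.05 numbered 0 in the reported fit, 27 in DESeq2 and 1 in edgeR with the 2 groups only, and 0 under every other alternative. DESeq2 gave 337 genes higher. Same-numbered libraries of the groups did not deviate together (correlations 0.23, -0.52 and -0.23). The highest correlation, 0.66, was between the stroma-rich libraries, so these values cannot exclude a pairing, which the sources used here do not state. With the replicate block 173 genes were higher, 92 lower and 0 passed the adjusted p. Of the genes named, Folr2 changed sign without both stroma-rich libraries (0.015). The median log2 fold change of all genes lay between -0.01 and 0.07. All 41 list medians kept their sign under DESeq2, both other scalings and no filter, and 33 did without combination replicate 3. The common coefficient of variation between libraries of a group, as edgeR estimates it, was 0.457. How far depth limits the calls was not tested.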

Other observations

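A few transcription factor and growth factor genes are given here, chosen after their values were seen. Tal1, a basic helix-loop-helix factor of blood cells, lay at 4.57, 4.89 and 7.41 CPM in control and 2.66, 1.95 and 2.72 CPM in the combination (edgeR log2 fold change -1.2, SE 0.31), with the groups apart, and missed the nominal thresholds without control replicate 3 (-0.96). Bhlhe41, a repressor expressed in resident macrophages, was at 71.9, 44.5 and 95.7 CPM and 22.8, 42.7 and 40 CPM (-1.01, SE 0.36) and missed them without control replicate 1 (-1.0), control replicate 3 (-0.74) and combination replicate 1 (-0.83). Igf1, insulin-like growth factor 1 and a member of the resident macrophage list, was even in control at 20.3, 21.5 and 19.5 CPM and spread in the combination at 7.94, 19.3 and 15.8 CPM (-0.51, SE 0.31, edgeR unadjusted p = 0.137), while doxorubicin alone held 7.49, 5.65 and 5.65 CPM, below every control library.

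The predicted transcript Gm8810 was present or absent rather than graded. It had 0, 0 and 0 counts in the control libraries and 4329, 5011 and 7935 in the combination libraries, while doxorubicin alone held 86.2, 0 and 68.6 CPM, so that 1 doxorubicin library resembled control. DESeq2 gave it an adjusted p of 0.00105. The cause was not tested.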
